A study of Mus musculus with 16 samples.

Results

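The globins described here are the embryonic genes Hba-x, Hbb-bh1 and Hbb-y and the adult genes Hba-a1, Hbb-b1 and Hbb-b2, found by symbol in the platform annotation of a mouse expression array. The array carried 14 probe sets that named at least 1 of these 6 genes, of 45037 probe sets after control probe sets were left out. Of the 14, 10 named a single globin and 4 named several. The 3 embryonic genes each had at least 1 probe set of their own. The adult genes are near-identical copies of one another, and their bright probe sets were shared. The brightest α probe set named Hba-a1 together with Hba-a2, and the brightest β probe set named Hbb-b1 and Hbb-b2 together with Hbb-bs and Hbb-bt. The 6 genes therefore gave 5 measurements, called here Hba-x, Hbb-bh1, Hbb-y, shared adult α and shared adult β, and the last 2 cannot be divided among the copies they name.

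Haemoglobin is a tetramer of α-type and β-type globin chains, each holding a heme group that binds oxygen. In the mouse the first red cells are the primitive erythrocytes of the yolk sac, which enter the circulation still carrying nuclei. The chains of their haemoglobins include Hba-x (ζ), Hbb-y (εy) and Hbb-bh1 (βh1). Definitive red cells from the fetal liver follow and carry adult α and β chains. Shared adult α was already bright at the earliest stage below, so it is not read here as a mark of definitive cells. The genes of each family lie side by side. On chromosome 11 the order along the forward strand was Hba-x, Hba-a1, Hbq1b, Hba-a2 and Hbq1a, and on chromosome 7 it was Hbb-bt, Hbb-bs, the pseudogene Hbb-bh3, Hbb-bh2, Hbb-bh1 and Hbb-y, with the β genes read from the reverse strand, in RefSeq's annotation of GRCm38.p6. Hbb-bs and Hbb-bt are the names of the adult β genes in mice of the "single" haplotype, and Hbb-b1 and Hbb-b2 the names in mice of the "diffuse" haplotype. The sources used here do not give the strain of the embryos.

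The samples were heads of mouse embryos, 6 taken on embryonic day 9.5 (E9.5), 4 on day 11.5 (E11.5) and 6 on day 13.5 (E13.5), and the submitters call the samples of a stage biological replicates. The sources give no treatment, genotype or sex, nor whether blood was washed out. One labelling kit served for E9.5 and E11.5 and a different one for E13.5, so that an E13.5 difference mixes stage with kit, and these cannot be told apart. The values are RMA probe set intensities on a linear scale, and the tests were run on their log2. Such values show change relative to the other transcripts of an array.

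Promoters of Hba-x, Hba-a1, Hbb-y and the adult β genes Hbb-bs and Hbb-bt are shown. The embryonic and adult genes of 1 cluster moved in different directions from E11.5 to E13.5 in the data below. From E9.5 to E11.5 Hba-x and Hbb-y rose, as did the adult measurements. Promoters of Hbb-bh1, Hbb-b1 and Hbb-b2 are not shown. Each line holds the 150 bases before the RefSeq start, from 5′ to 3′ on the gene's own strand. Capitals mark 5-letter motifs found by search on both strands: CACCC, the core of the box bound by Krüppel-like factors; CCAAT, the core of the CAAT box; GATAA, a site of GATA-type factors; TATAA, a form of the TATA box; and its variant ATAAA, which shares letters with TATAA in Hba-x and Hbb-bt. The windows are chr11:32276450-32276599 for Hba-x, chr11:32283522-32283671 for Hba-a1, chr7:103853208-103853357 for Hbb-y, chr7:103827929-103828078 for Hbb-bs and chr7:103813924-103814073 for Hbb-bt, all in GRCm38.p6, the first 2 on the forward strand and the β genes on the reverse strand.
Hba-x: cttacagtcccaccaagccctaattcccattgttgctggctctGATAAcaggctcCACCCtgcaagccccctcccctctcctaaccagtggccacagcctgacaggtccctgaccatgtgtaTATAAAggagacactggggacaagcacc
Hba-a1: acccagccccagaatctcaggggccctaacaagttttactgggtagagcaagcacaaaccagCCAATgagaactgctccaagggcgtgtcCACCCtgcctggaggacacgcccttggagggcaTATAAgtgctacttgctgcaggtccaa
Hbb-y: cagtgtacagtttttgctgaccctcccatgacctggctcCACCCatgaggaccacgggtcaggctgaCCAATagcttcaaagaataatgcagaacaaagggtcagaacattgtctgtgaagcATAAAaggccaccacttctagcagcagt
Hbb-bs: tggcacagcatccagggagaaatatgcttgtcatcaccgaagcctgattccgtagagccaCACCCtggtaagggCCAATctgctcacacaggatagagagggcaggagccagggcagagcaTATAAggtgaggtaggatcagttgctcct
Hbb-bt: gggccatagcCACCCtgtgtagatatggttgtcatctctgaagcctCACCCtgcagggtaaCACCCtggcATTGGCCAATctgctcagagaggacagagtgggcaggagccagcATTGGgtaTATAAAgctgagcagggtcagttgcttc

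All 5 windows shown held CACCC, which occurred in 37.4% of 32851 RefSeq promoter windows of the same length. CCAAT was found in Hba-a1, Hbb-y, Hbb-bs and Hbb-bt but not in these letters in Hba-x, against 24.5% of all windows. CACCC and CCAAT stood together in 8.69% of all windows. GATAA was found in Hba-x alone of the 5, with its far end 107 bases before the start, and in 13.3% of all windows. TATAA was present in all but Hbb-y, which held ATAAA 28 bases before its start (14.2% and 24.1% of all windows). Hbb-bt held CACCC at 3 places and CCAAT at 3 places, while each of the other windows held CACCC at 1 place. A match is a description of the letters in the window and not of a bound site.

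From E9.5 to E11.5, 4 of the 5 measurements rose and 1 fell. Over all 18195 genes tested, 31.0% were called higher and 26.9% lower, at a limma adjusted p under 0.05. From E11.5 to E13.5, shared adult α and shared adult β rose and the 3 embryonic globins fell, where 27.9% of all genes were called higher and 27.0% lower. Between E9.5 and E13.5 the adult measurements rose and Hbb-bh1 fell (32.7% of all genes higher, 29.1% lower), and Hba-x and Hbb-y did not pass the test. The 2-fold limit was passed upward by shared adult α and shared adult β from E9.5 to E11.5 (6.09% of all genes), upward by shared adult β from E11.5 to E13.5 (5.79%) and downward by Hbb-bh1 from E11.5 to E13.5 (3.80%).

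**Figure D1:**
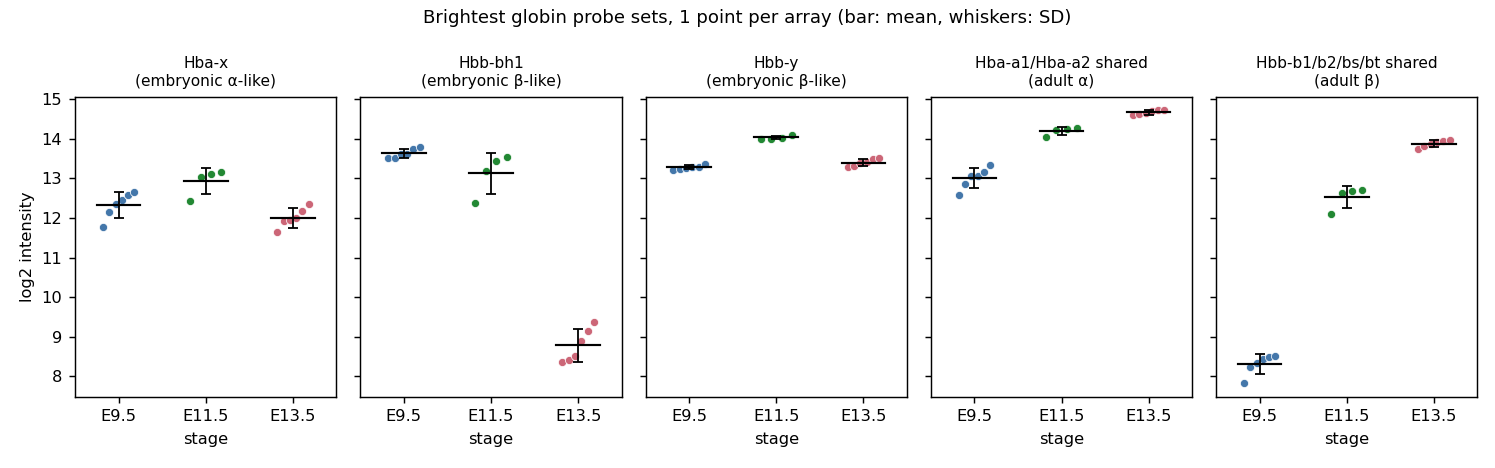
Log2 intensity of the 5 globin measurements on each of the 16 arrays (points) with stage means and SD (bars), for the 6 E9.5, 4 E11.5 and 6 E13.5 samples. Shared adult β climbs from a mean of 8.31 to 13.88, Hbb-bh1 drops from 13.63 to 8.78, and Hba-x and Hbb-y are highest at E11.5.

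Hbb-bh1 encodes βh1, an early embryonic β-type chain. At E9.5 its brightest probe set read between 11653 and 14149, with a median of 12582.5. At E11.5 the 4 arrays read 11020 in replicate 33, 11885 in replicate 36, 5359 in replicate 51 and 9327 in replicate 52. At E13.5 the values lay between 331 and 662, with a median of 420.5. The E13.5 arrays were therefore far below all others, while E9.5 and E11.5 overlapped, with replicate 51 the lowest of the E11.5 arrays. The log2 means were 13.63 ± 0.11 (SD, n = 6), 13.13 ± 0.52 (n = 4) and 8.78 ± 0.41 (n = 6). Hbb-bh1 fell by 4.35 ± 0.20 (SE) on the log2 scale from E11.5 to E13.5, a 20.4-fold difference (limma adjusted p = 5.3e-13). The difference from E9.5 to E11.5 was -0.50 ± 0.20 (adjusted p = 0.0394), and that call was lost in 6 of 13 other settings. It was also lost when any of E9.5 replicates 15, 16, 19 and 24 or E11.5 replicates 51 and 52 was left out (log2 differences between -0.63 and -0.25, adjusted p up to 0.242).

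The other 2 probe sets of Hbb-bh1 gave the same large fall. The probe set with the suffix _x_at fell by 4.32 and the remaining _a_at probe set fell by 4.47 on the log2 scale from E11.5 to E13.5. They parted between E9.5 and E11.5, where the former differed by -0.43 (limma adjusted p = 0.0614) and the latter by -0.06 (adjusted p = 0.846). Within each array, the log2 difference of the latter from the brightest probe set moved by 0.44 over that interval (exact permutation test, adjusted p = 0.0143 over 18 such tests, which were chosen after seeing the values). The order of the stages in Hbb-bh1 was E9.5, E11.5, E13.5 from high to low, and the first pair was not separated in 2 of its 3 probe sets.

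Hbb-y encodes εy, the other embryonic β-type chain. Its brightest probe set read between 9454 and 10518 at E9.5, with a median of 9983.5. The E11.5 arrays read 16416, 17601, 16351 and 16747 in replicates 33, 36, 51 and 52. The E13.5 arrays read between 10060 and 11648, with a median of 10807.5. All E11.5 arrays lay above all arrays of the other stages, which overlapped each other. The log2 means were 13.28 ± 0.05 (SD, n = 6), 14.03 ± 0.05 (n = 4) and 13.40 ± 0.09 (n = 6). Hbb-y rose by 0.75 ± 0.07 (SE) from E9.5 to E11.5 (1.69-fold, limma adjusted p = 1.4e-08) and fell by 0.63 ± 0.07 from E11.5 to E13.5 (1.55-fold, adjusted p = 1.6e-07). E13.5 differed from E9.5 by 0.12 ± 0.06 (adjusted p = 0.104).

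All 3 probe sets of Hbb-y were highest at E11.5 and lowest at E9.5 by their means, and they differed in how far E13.5 lay above E9.5. The brightest one and a second one both carry the suffix _x_at, and the second gave differences of 0.77, -0.65 and 0.13. The third, with the suffix _a_at, read 4169 to 8026 at E9.5 and 10123 to 12758 at E13.5, so those stages did not overlap there. It rose by 1.21 from E9.5 to E11.5, differed by -0.30 from E11.5 to E13.5 (limma adjusted p = 0.0719) and rose by 0.91 from E9.5 to E13.5 (adjusted p = 1.5e-06). The log2 difference between the last and the brightest probe set on an array moved by 0.79 from E9.5 to E13.5 (exact permutation test, adjusted p = 0.0143). At the level of single probe sets, 52.4%, 51.5% and 57.6% of all probe sets were called in the 3 comparisons in the order E11.5 against E9.5, E13.5 against E11.5 and E13.5 against E9.5. The suffix _x_at marks probe sets whose probes can match other transcripts, and the β-type globins are close relatives; what part this had in the difference was not tested.

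Hba-x encodes ζ, the embryonic α-type chain, and had 1 probe set. It read between 3521 and 6511 at E9.5, with a median of 5420.5. At E11.5 replicates 33, 36, 51 and 52 read 9093, 8785, 5524 and 8431. At E13.5 the range was 3188 to 5250 with a median of 3992.5. Replicate 51 fell inside the E9.5 range, and the other E11.5 arrays lay above all arrays of both other stages. The log2 means were 12.33 ± 0.32 (SD, n = 6), 12.93 ± 0.34 (n = 4) and 12.00 ± 0.25 (n = 6). Hba-x rose by 0.60 ± 0.17 (SE) from E9.5 to E11.5 (1.51-fold, limma adjusted p = 0.00477) and fell by 0.93 ± 0.17 from E11.5 to E13.5 (1.90-fold, adjusted p = 9.3e-05). The difference of E13.5 from E9.5 was -0.33 ± 0.15 (adjusted p = 0.0641); it passed the threshold without E9.5 replicate 13, E11.5 replicate 51 or E13.5 replicate B63E5K, with leave-one-out differences between -0.44 and -0.26. Its intensity at E13.5 was thus within 2-fold of that at E9.5, where Hbb-bh1 differed 28.8-fold.

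Shared adult α, the probe set of Hba-a1 and Hba-a2, was already bright at E9.5, where it read 6118 to 10282 with a median of 8564.5. At E11.5 replicates 33, 36, 51 and 52 read 19561, 19716, 16965 and 19021. At E13.5 it read 24702 to 26979, with a median of 26126. The 3 stages did not overlap. The log2 means were 13.01 ± 0.26 (SD, n = 6), 14.20 ± 0.10 (n = 4) and 14.67 ± 0.06 (n = 6). It rose by 1.19 ± 0.11 (SE) from E9.5 to E11.5 (2.27-fold, limma adjusted p = 1.1e-08) and by 0.47 ± 0.11 from E11.5 to E13.5 (1.38-fold, adjusted p = 9.7e-04). The second rise did not pass the test after quantile normalization (0.19, adjusted p = 0.187). On all 6 E13.5 arrays this was the brightest probe set of the array, and whether the scanner's upper limit was reached was not tested.

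The other probe sets of the α copies rose as well, by different amounts. The dimmer _x_at probe set, which names both copies, rose by 1.02 and then by 1.17, a larger second step than the brightest probe set gave (exact permutation test on the within-array difference, adjusted p = 0.0245). The _s_at probe set, also shared, rose by 1.33 and then differed by 0.23 (limma adjusted p = 0.0533). The probe set naming Hba-a2 alone read 22 to 53 at E9.5, 147 to 205 at E11.5 and 221 to 255 at E13.5. It rose by 2.08 and by 0.51 on the log2 scale (limma adjusted p = 2.3e-08 and 0.0351). The single probe set naming Hba-a1 alone read only 7 to 12 on the 16 arrays, at or below the lower quartile of each array (12), and differed in none of the comparisons (adjusted p between 0.0792 and 0.407), so Hba-a1 on its own cannot be described from it.

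Shared adult β gave the widest range of the 5. At E9.5 it read 227 to 368, with a median of 335.5. At E11.5 replicates 33, 36, 51 and 52 read 6525, 6721, 4403 and 6356. At E13.5 it read 13626 to 16040, with a median of 15194. No array of a stage overlapped any array of another. The log2 means were 8.31 ± 0.26 (SD, n = 6), 12.53 ± 0.29 (n = 4) and 13.88 ± 0.09 (n = 6). It rose by 4.22 ± 0.13 (SE) from E9.5 to E11.5, an 18.7-fold difference (limma adjusted p = 6.1e-15), where both stages were labelled with the same kit. It rose by a further 1.35 ± 0.13 from E11.5 to E13.5 (2.54-fold, adjusted p = 2.6e-08), and the whole rise from E9.5 was 47.4-fold. The poly-A spike-in and 18S ribosomal RNA probe sets also moved between E9.5 and E11.5, as given below.

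Hbb-b2 also had 2 dim probe sets of its own. The brighter one read 24 to 28 at E9.5, 27 to 33 at E11.5 and 39 to 55 at E13.5, around the array median of 32. It differed by 0.22 from E9.5 to E11.5 (limma adjusted p = 0.0557) and rose by 0.66 from E11.5 to E13.5 (adjusted p = 7.8e-06). The direction was that of shared adult β and the size far smaller. The other one read 5 to 16, close to the low end of the scale. Of the 14 probe sets, these 2 and the one naming Hba-a1 alone thus stayed dim throughout, and none of them was left out of the tests.

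**Figure D2:**
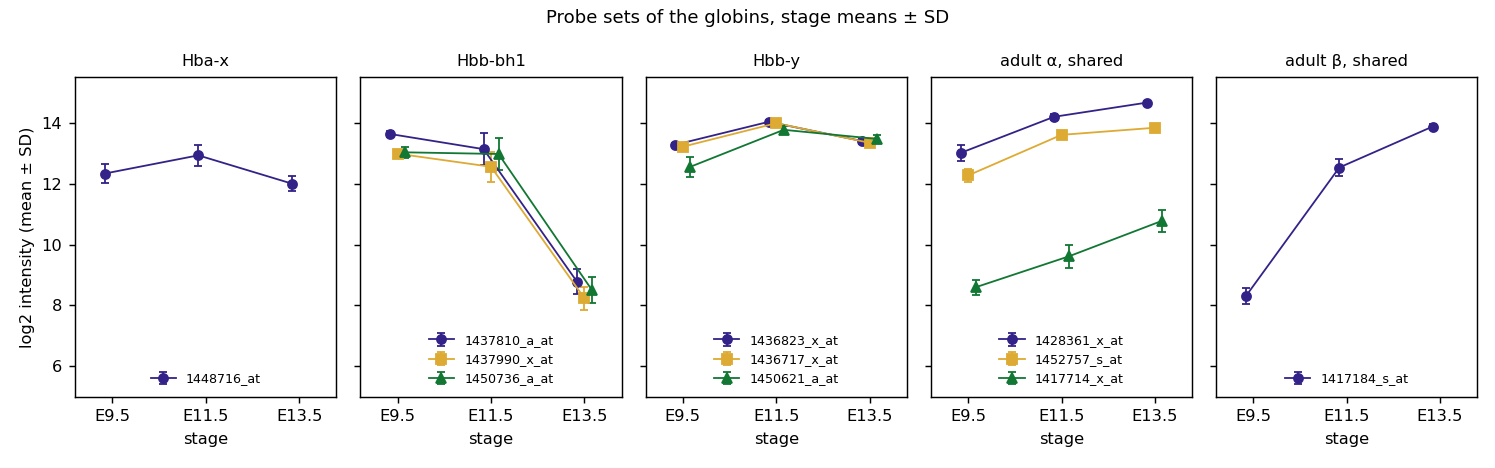
Stage means ± SD of log2 intensity for the probe sets of Hba-x, Hbb-bh1, Hbb-y and the adult globins, without the 3 dim ones; lines join the stages of 1 probe set (n = 6, 4 and 6 arrays). The 3 Hbb-bh1 lines drop together after E11.5, and the Hbb-y lines part at E9.5, where the _a_at probe set has a mean of 12.56 and the brightest _x_at probe set one of 13.28.

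Differences between globins on the same array were compared next. A shift of equal log2 size in all red cell transcripts of an array cancels in them, and an unequal one does not. E11.5 replicate 51 lay 0.75 below its stage mean in Hbb-bh1 and 0.04 below in the brightest Hbb-y probe set, so part of its shift remains. The differences show unequal change and give no level of 1 probe set against another. Each of 8 pairs was compared in 3 stage comparisons. All 24 exact two-sided permutation tests gave the smallest p their sample numbers allow (0.00476 for 4 against 6 arrays and 0.00216 for 6 against 6), and adjusted over the 24 each was 0.00476. In none of the 24 did any array of the later stage reach into the range of the earlier one. The 24 are not separate results, because pairs share members and the E13.5 against E9.5 change of a pair follows from its other changes. Where both members already separated in opposite directions, as Hbb-bh1 and shared adult β did from E11.5 to E13.5, the outcome was fixed in advance. Among single genes, ranges were separate in 37.7% of genes for E11.5 against E9.5, in 43.0% for E13.5 against E11.5 and in 44.8% for E13.5 against E9.5. The share among differences of gene pairs was not computed.

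Among the β-type genes, the log2 difference of Hbb-bh1 minus shared adult β went from 5.32 ± 0.22 (SD, n = 6) at E9.5 to 0.60 ± 0.24 (n = 4) at E11.5 and -5.09 ± 0.33 (n = 6) at E13.5. The ratio of the 2 signals thus moved 26.3-fold in the first interval and 51.9-fold in the second. Hbb-y minus shared adult β moved by -3.47 and then by -1.98, the larger step coming before E11.5. The embryonic β-type genes also moved apart from each other. Hbb-bh1 minus Hbb-y went from 0.35 ± 0.13 at E9.5 to -0.90 ± 0.49 at E11.5 and -4.62 ± 0.37 at E13.5, with steps of -1.25 and -3.72.

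Among the α-type genes the shift was smaller. Hba-x minus shared adult α went from -0.68 ± 0.08 (SD, n = 6) to -1.27 ± 0.24 (n = 4) and -2.66 ± 0.20 (n = 6), a 3.96-fold change of the ratio over the 3 stages. The embryonic chains of the 2 clusters were compared directly. Hba-x minus Hbb-bh1 rose by 1.09 from E9.5 to E11.5 and by 3.42 from E11.5 to E13.5. Shared adult α minus shared adult β fell by 3.04 and then fell by 0.88, so with these probe sets adult β gained on adult α in both intervals. The size of the second step depends on the α probe set. From E11.5 to E13.5 the dimmer shared _x_at probe set rose by 1.17 and the _s_at one differed by 0.23, against 1.35 for shared adult β. With Hbb-b2's own dim probe set as the reference, Hbb-bh1 fell by 0.72 and then fell by 5.01 relative to it, and Hbb-y rose by 0.53 and then fell by 1.30, with a difference of -0.77 between E13.5 and E9.5 and no overlap.

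**Figure D3:**
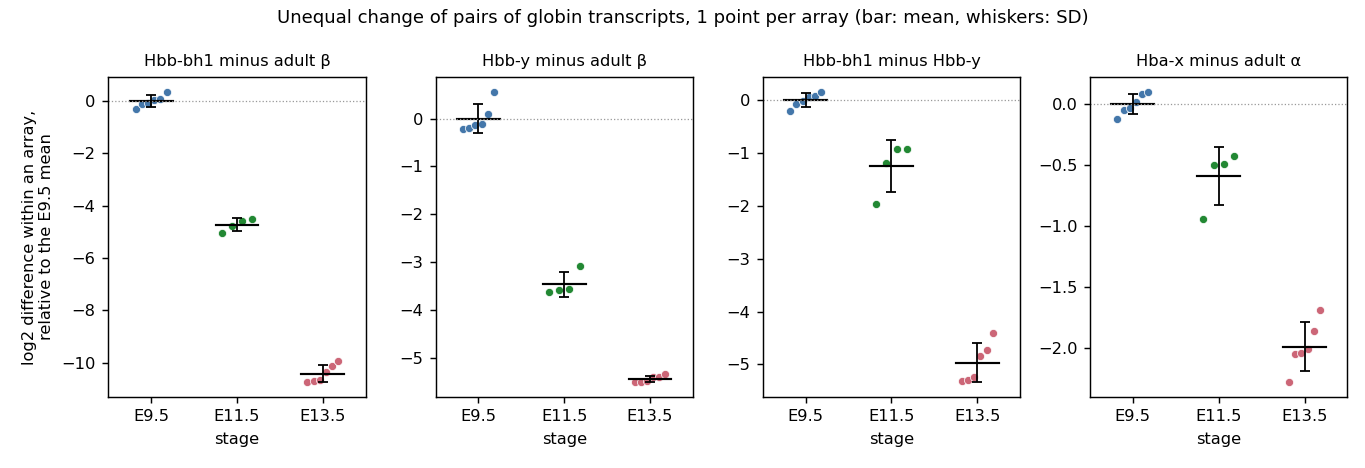
Log2 difference between 2 globin signals on the same array, shown relative to the E9.5 mean of that difference, for the 6, 4 and 6 arrays of the stages in order of age (points), with stage means and SD; each panel has its own axis. Hbb-bh1 minus shared adult β lies at -4.72 at E11.5 and -10.42 at E13.5, while Hba-x minus shared adult α lies at -0.59 and -1.98.

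Arrays of the same stage also differed from each other. E11.5 replicate 51 was below its stage mean by 0.75 in Hbb-bh1, 0.50 in Hba-x, 0.43 in shared adult β and 0.15 in shared adult α on the log2 scale, and by 0.04 in Hbb-y. The mean of 24 red cell membrane and maturation genes was 0.27 below its stage mean on the same array. E9.5 replicate 13 was the lowest of its stage in Hba-x, shared adult α and shared adult β, by 0.55, 0.43 and 0.48 below the mean. Across the 16 deviations from stage means, Pearson's r was 0.91 between Hba-x and shared adult β, 0.87 between the shared adult measurements and 0.77 between Hba-x and Hbb-bh1. For Hbb-y, by its brightest probe set, it was between -0.04 and 0.45 with the other 4. These correlations describe 16 arrays that share their normalization and carry no test. The _a_at probe set of Hbb-y was not used in them. In that probe set E11.5 replicate 51 was the lowest of its stage, at a log2 of 13.59 against a mean of 13.77. E9.5 replicate 13 was the lowest of its stage there too, at 12.03 against a mean of 12.56. At E13.5 the sample titles carry 2 prefixes, B62 and B63, with 3 arrays each, whose meaning was not given. Hba-x was 0.35 higher, Hbb-y 0.15 higher, shared adult α 0.10 higher and the mean of the membrane and maturation genes 0.09 higher in the B63 samples with no overlap (exact permutation p = 0.1 for each, the smallest that 3 against 3 allows). Shared adult β was 0.11 higher and Hbb-bh1 0.45 higher, with overlap (exact permutation p = 0.2 for each).

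**Figure D4:**
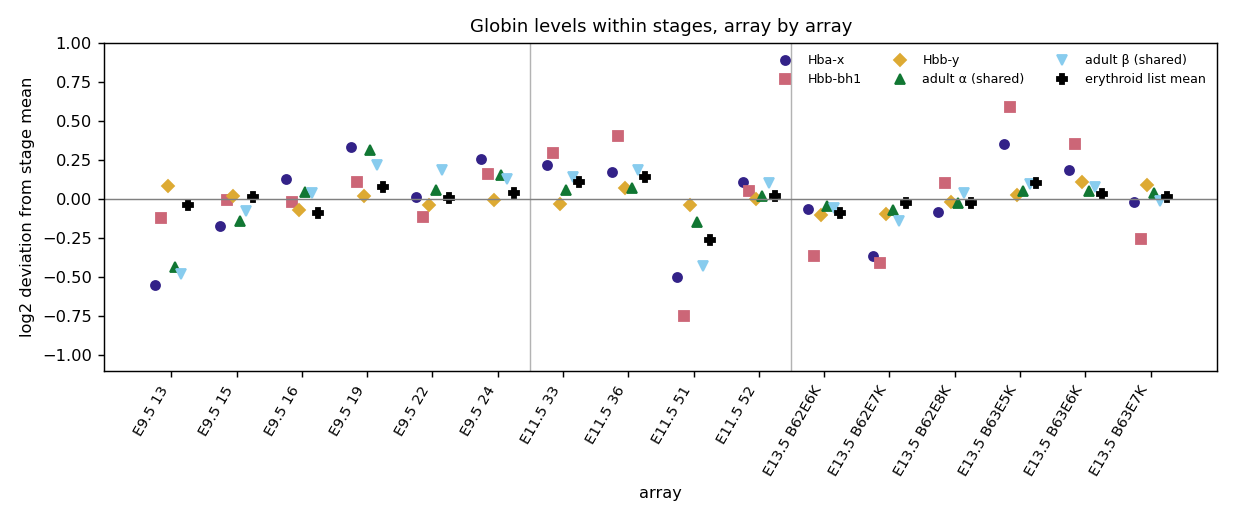
Deviation of each array from its stage mean, in log2 units, for the 5 globin measurements and for the mean of 24 red cell membrane and maturation genes. E11.5 replicate 51 lies lowest of its stage in Hbb-bh1 (by 0.75) and in Hba-x (by 0.50). Its value in the brightest Hbb-y probe set lies 0.04 below the mean.

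Other genes listed for roles in red cells give the setting for these values. In whole heads, fewer cells of a type and less RNA per cell cannot be told apart. The lists hold regulators, heme and iron genes, and membrane and maturation genes. Some of them, such as Bcl11a and Add2, are also made by neurons, so the counts are not those of red cells alone. Of 73 such genes measured, 31 rose and 18 fell from E9.5 to E11.5 (31.0% and 26.9% of all genes), with a median log2 difference of 0.17. From E11.5 to E13.5, 16 rose and 40 fell (27.9% and 27.0% of all genes), with a median of -0.33. Of 24 membrane and maturation genes, 13 rose and 4 fell in the first interval, which is 54.2% and 16.7% against 31.0% and 26.9% of all genes. In the second, 3 rose and 14 fell, which is 12.5% and 58.3% against 27.9% and 27.0%. Its mean log2 level over the list was 6.09 to 6.26 on the E9.5 arrays, 6.32 to 6.72 at E11.5 and 5.72 to 5.91 at E13.5, so the stages did not overlap.

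Within that list the named genes took different paths. Hemgn, a nuclear protein of erythroid cells, rose by 1.38 ± 0.27 (SE) and then fell by 5.19 ± 0.27. Slc4a1, the band 3 anion exchanger of the red cell membrane, rose by 0.64 ± 0.27 and then fell by 2.38 ± 0.27. Car2, a carbonic anhydrase, rose by 0.67 and then fell by 2.29, and Rhag, the Rh-associated glycoprotein, differed by 0.34 without passing the test and then fell by 2.21. Aqp1, a water channel also found in choroid plexus, rose by 0.42 and 2.59. Add2, the β-adducin of the membrane skeleton that neurons also make, rose by 3.04 and 0.82.

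Among 18 heme and iron genes, 7 rose and 6 fell in the first interval (38.9% and 33.3%, against 31.0% and 26.9% of all genes), and 6 rose and 7 fell in the second (33.3% and 38.9%, against 27.9% and 27.0%). These shares were close to those of the array as a whole. Alas2, the erythroid enzyme of the first step of heme synthesis, rose by 0.41 ± 0.14 (SE) and then fell by 0.47 ± 0.14. Slc25a37, the mitochondrial iron importer mitoferrin-1, rose by 0.81 and then fell by 2.89, and Abcb10, a mitochondrial transporter, rose by 0.56 and then fell by 0.87. Tfrc, the transferrin receptor, fell by 0.83 and then fell by 0.52, and Fth1, the ferritin heavy chain, rose by 1.44 before E11.5 and differed by 0.22 without passing the test afterwards. From E11.5 to E13.5, when shared adult α and shared adult β rose, Hemgn, Slc4a1, Slc25a37 and Alas2 fell, while Urod, Slc25a39, Cpox and Bpgm rose by 0.70, 0.68, 0.44 and 0.51.

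Of 31 genes listed as globin regulators, 11 rose and 8 fell from E9.5 to E11.5 (35.5% and 25.8%, near the 31.0% and 26.9% of all genes). From E11.5 to E13.5, 7 rose and 19 fell (22.6% and 61.3%, against 27.9% and 27.0% of all genes). Klf1, the erythroid Krüppel-like factor, differed by -0.31 ± 0.13 (SE) without passing the test and then fell by 1.71 ± 0.13. Gata1, the erythroid GATA factor, fell by 0.56 and then fell by 0.38. Myb, a factor of progenitor cells, rose by 0.49 and then fell by 0.33. Bcl11a, a repressor of embryonic globin genes that developing neurons also express, rose by 3.83 and 0.81, and its partner Sox6 passed the test in neither interval (0.07 and 0.18). Lin28a, a regulator of microRNA processing in stem and progenitor cells, fell by 5.44 and then fell by 2.24. Igf2bp1, another RNA-binding protein of fetal tissues, rose by 0.59 and then fell by 2.20. Since these are levels in whole heads, the cells they come from were not resolved.

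**Figure D5:**
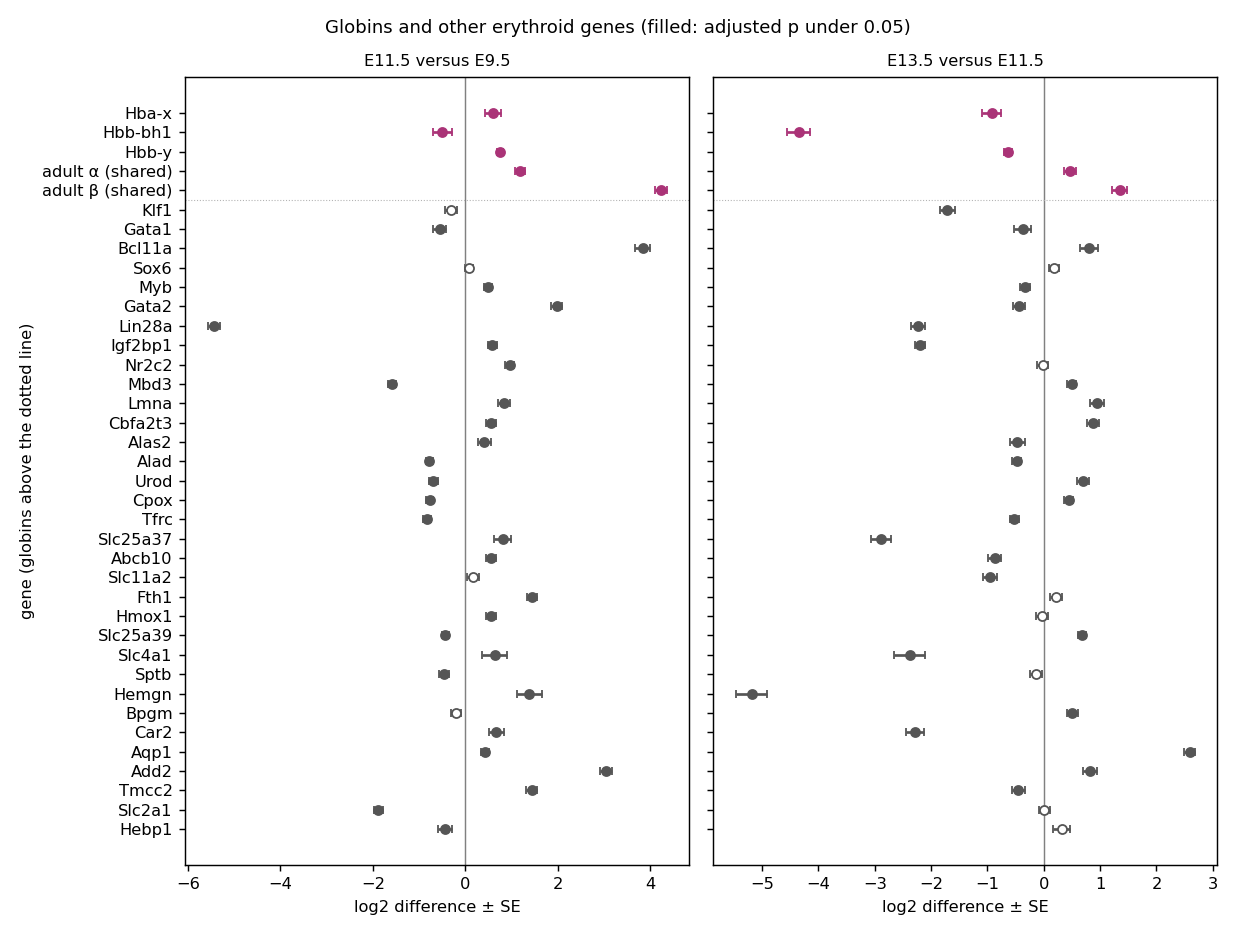
Log2 difference ± SE of the 5 globin measurements (above the dotted line) and of named regulator, heme, iron and membrane genes, from E9.5 to E11.5 (left) and from E11.5 to E13.5 (right); filled points have a limma adjusted p under 0.05. In the right panel the adult globins lie at 0.47 and 1.35, Hemgn, Slc25a37 and Slc4a1 lie at -5.19, -2.89 and -2.38, and Aqp1, Add2 and Urod lie at 2.59, 0.82 and 0.70.

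When each array was expressed relative to its mean over the 24 membrane and maturation genes, Hbb-bh1 still fell by 3.57 from E11.5 to E13.5. Shared adult α rose by 1.25 and shared adult β rose by 2.13 in that interval. Hba-x differed by -0.15 (limma adjusted p = 0.332) and Hbb-y by 0.15 (adjusted p = 0.157), so their fall after E11.5 was not seen on that scale. In the first interval Hba-x differed by 0.19 (adjusted p = 0.231) and the other 4 measurements kept their calls, at -0.90 for Hbb-bh1, 0.35 for Hbb-y, 0.78 for shared adult α and 3.82 for shared adult β. The reference list itself includes genes that other cells of the head make.

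Among other members of the globin family, Cygb, cytoglobin, fell by 0.38 and then rose by 1.12. Ngb, neuroglobin of neurons, differed by 0.22 and by -0.22 (limma adjusted p = 0.113 and 0.119). Markers of other cells moved between the stages as well, and their counts stand against 31.0% of all genes higher and 26.9% lower in the first interval and 27.9% and 27.0% in the second. All 12 neuronal genes rose in the first interval and 9 in the second, and 15 of 18 macrophage and microglial genes rose in the first and 11 in the second. The endothelial list mean was 6.60 to 6.89 on the E9.5 arrays, 6.41 at the lowest and 6.46 at the median of E11.5 and 6.78 to 6.92 at E13.5. Of 11 liver and yolk sac endoderm genes, 2 rose and 2 fell in the first interval, and 1 rose and 3 fell in the second. Their part in the globin differences was not tested. Spike-in controls moved with stage too, as the log2 mean of the poly-A spike-in probe sets was 8.12 ± 0.25 (SD, n = 6) at E9.5, 5.67 ± 0.15 (n = 4) at E11.5 and 5.40 ± 0.11 (n = 6) at E13.5. The 3 probe sets of 18S ribosomal RNA moved the other way, with log2 means of 7.25 ± 0.42, 10.19 ± 0.30 and 10.74 ± 0.16. The largest steps of both fell between E9.5 and E11.5, the stages labelled with the same kit, and their part in the globin differences was not tested.

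The genes whose level over the 16 arrays was most like that of Hbb-bh1 were Hells (Pearson's r = 0.992), Jpt2, Gsdme, Cenpq, Pde3b and Ints2. Those most like shared adult β were Plpp3 (r = 0.996), Ly86, Gad1, 2310067E19Rik, Tnik and Add2 (r = 0.993). With 3 stages such likeness rests mostly on the 3 stage means. After the stage means were removed, r was 0.48 for Hells with Hbb-bh1 and 0.71 for Plpp3 with shared adult β.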

How the data were processed

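RNA from 16 embryo heads was measured on 1-colour arrays. The deposited values are probe set intensities on a linear scale, made by the authors with RMA, per the submitters' processing notes; the sources used here give no version or settings. RMA normalizes arrays to one another, so a value is relative to the rest of its array. The 6 members and all gene lists were chosen with earlier results of these data known. Promoter sequences come from the RefSeq table of GRCm38.p6, matched by symbol.

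The log2 of each intensity was taken. Each gene was represented by the brightest of the probe sets naming it alone (18195 genes; 45037 probe sets after 64 controls were left out; 932 named several genes and 9160 were unnamed here). Shared globin probe sets were kept as measurements of their own, because the own probe set of Hba-a1 was dim and Hbb-b1 had none. Tests between stages used limma 3.58.1 (R 4.3.3), all 16 arrays in 1 model, with Benjamini-Hochberg adjustment over genes (for single probe sets, over probe sets), and called at an adjusted p under 0.05. The script was tested on simulated data. Within-array differences were tested with exact permutation tests. Named genes were all members, Klf1, Gata1, Bcl11a, Sox6, Myb, Alas2 and Slc4a1, genes with the 3 largest rises and falls per erythroid list, and the 6 genes most like a member; of these the text gives those that show the range. Alternatives were other normalizations, probe set choices, offsets, filters, variance models, array weights, a block for title prefix, and leaving out arrays. The number of arrays limits the precision. The limma p-values weigh a difference of stage means against the spread between these samples. The exact ones weigh it against relabellings of the arrays. Except with the block for title prefix, both take the E13.5 arrays as independent of each other.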

Additional observations from a re-analysis of the deposited data

Results flagged for a closer look

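Of 69 groups of 4 to 6 arrays examined, 7 held an array whose gap to the nearest other was large for the group's range. Chance alone gives about 1 in 20 in separate groups, which these were not. The within-array differences reuse the probe set values, so 1 array can be counted several times. In 6 of the 7 the array was E11.5 replicate 51. Its log2 value was 12.10 in shared adult β, where the other E11.5 arrays lay between 12.63 and 12.71, and 12.43 in Hba-x, where they lay between 13.04 and 13.15. Among the within-array differences it stood at -1.62 in Hba-x minus shared adult α, at 7.58 in Hbb-bh1 minus Hbb-b2's own probe set, at 1.89 in Hbb-y minus shared adult β and at 1.95 in shared adult α minus shared adult β. The seventh was E11.5 replicate 52 in the dimmer Hbb-b2 probe set, at 3.46 where the other 3 arrays were all at 3.17, a step between whole-number intensities of 11 and 9.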

How the results depend on the processing

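Of 1221 alternative values, 1159 kept their side of the threshold without reversing a called difference, 30 lost the call, 28 gained one and 4 reversed. A change of sign counted as kept where neither value was called. Relative to the membrane and maturation genes, Hba-x at E13.5 against E9.5 went that way, from -0.33 to 0.05 (limma adjusted p = 0.745). Counts of calls were taken as kept within a factor of 1.5. Part of the differences could not change. Leaving out an array of a stage outside a comparison leaves its difference as it was. Averaging probe sets does the same for Hba-x and shared adult β, which have a single probe set each. The rise of shared adult β and the fall of Hbb-bh1 from E11.5 to E13.5 kept their calls in every setting run for them, as did all 24 within-array comparisons. The call of Hbb-bh1 from E9.5 to E11.5 was lost with 16 added before log2 (-0.50), with the mean of its probe sets (-0.33), with the second-brightest probe set (-0.055), with a trended robust variance (-0.50), with array weights (-0.43) and without E9.5 replicates 13 and 15 together (-0.53); except with the second-brightest probe set, where no count was made, the number of measurements called lower then went from 1 to 0. Leaving out 1 array gave -0.63 to -0.25 and 0 to 1 called lower. Hbb-y at E13.5 against E9.5 became a call with 16 added (0.12), the mean of probe sets (0.39), the _x_at and _s_at probe sets left out (0.91), a trended robust variance (0.12), array weights (0.14) and relative to the membrane list (0.50). With 16 added, the mean of probe sets, the trended variance and array weights, the number called higher in that comparison thus went from 2 to 3. Without the _x_at and _s_at probe sets its fall from E11.5 to E13.5 was not called (-0.30), and relative to the membrane list that difference reversed to 0.15. Hba-x at E13.5 against E9.5 became a call with array weights (-0.40) and without E9.5 replicates 13 and 15 (-0.51), making 2 called lower; leaving out 1 array gave -0.44 to -0.26 and 1 to 2 called lower. Relative to the membrane list Hba-x was not called in either interval (0.19 and -0.15). The rise of shared adult α from E11.5 to E13.5 was not called after quantile normalization (0.19, leaving 1 called higher) or with its second-brightest probe set (0.23). Hba-a1 reversed against its own dim probe set where shared probe sets were allowed (1.19 and 1.65), since these were then chosen, and relative to the membrane list at E13.5 against E9.5 (0.28). Apart from that choice of probe set, the causes were not tested. With the block for title prefix, the estimated correlation within a block was 0.601. All calls were kept with it, at larger adjusted p. From E11.5 to E13.5 the limma adjusted p of shared adult α went from 9.7e-04 to 0.00763. That of Hba-x went from 9.3e-05 to 0.00127. The block was not run for E11.5 against E9.5, whose titles carry no prefix. No paired analysis was possible because the stages share no replicate numbers. Intensities in whole numbers limit the dim probe sets, where 1 unit is a large step.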

Other observations

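Named genes of the erythroid lists not described above also changed. Gata2, a GATA factor of progenitors that is also made in the developing brain, rose by 1.97 from E9.5 to E11.5 and fell by 0.44 from E11.5 to E13.5. Mbd3, a chromatin protein, fell by 1.59 and then rose by 0.49. Slc2a1, the glucose transporter of red cells and brain vessels, fell by 1.88 and then differed by 0.01 without passing the limma test. Urod and Cpox, enzymes of heme synthesis, fell by 0.69 and 0.78 in the first interval and rose by 0.70 and 0.44 in the second.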
